A study of Mus musculus with 14 samples.

Results

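The genes described here are 10 heat shock proteins and chaperones, taken by gene symbol from a table of 54955 gene symbols or unnamed IDs. Of the 10, 7 encode proteins that work mainly in the cytosol and nucleus (Hspa1a, Hspa1b, Hspa8, Hsph1, Hsp90aa1, Hspb1 and Dnajb1), and 3 encode chaperones of the endoplasmic reticulum, ER (Hspa5, Hsp90b1 and Pdia4). The rule that picks the genes uses their names and no measured value, although it was written with earlier results of these data known. The study sequenced RNA of adipose tissue from 14 mice of the C57BL/6 strain, all at postnatal week 21; 7 were wild type (WT, replicates 3 to 9) and 7 were labelled knockout for Dectin-1 (KO, replicates 1 to 7), the receptor of myeloid cells for fungal β-glucan that Clec7a encodes. The sources used here do not state the fat depot, the sex, the targeted allele or whether WT animals were littermates. Nor do they say more of the replicates than their numbers, so p-values measure the spread between these libraries.

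Chaperones bind unfolded stretches of protein and help them fold or keep them from clumping. The cytosolic genes include targets of the transcription factor HSF1, which binds heat shock elements (inverted repeats of GAA units) when unfolded protein builds up in the cytosol. The ER genes are targets of the unfolded protein response, whose sensors act through ATF6 and XBP1 on a separate promoter sequence, the ER stress response element, so that each compartment can adjust its folding capacity on its own. Adipocytes secrete large amounts of adipokines through the ER, and plasma cells are known for a particularly large ER.

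Promoters are shown because they are where these 2 arms differ in sequence. RefSeq promoters (GRCm38.p6, 250 bases before to 50 after a gene's start) were found by symbol for 8 of the 10 genes; Hspa8 and Hsp90aa1 had no entry in the table used. Heat shock elements were searched as GAANNTTC or TTCNNGAA (each is its own reverse complement, so both strands are covered), and as 3 such alternating units (GAA, TTC, GAA or TTC, GAA, TTC, parted by NN), which contain and so overlap the shorter form. The ER element was searched on both strands as CCAAT and CCACG parted by 9 bases. Capitals mark the fixed letters of each match. Of 32851 promoters of this length, 15.1% held the 2-unit element, 0.603% the 3-unit element and 0.119% the ER element.

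The 2 ER chaperone genes with a match are printed first, Hspa5 (chr2:34771840-34772139, plus strand) and Hsp90b1 (chr10:86705395-86705694, minus strand), followed by the third ER gene, Pdia4 (chr6:47813463-47813762, minus strand), in which these letters were not found.
Hspa5: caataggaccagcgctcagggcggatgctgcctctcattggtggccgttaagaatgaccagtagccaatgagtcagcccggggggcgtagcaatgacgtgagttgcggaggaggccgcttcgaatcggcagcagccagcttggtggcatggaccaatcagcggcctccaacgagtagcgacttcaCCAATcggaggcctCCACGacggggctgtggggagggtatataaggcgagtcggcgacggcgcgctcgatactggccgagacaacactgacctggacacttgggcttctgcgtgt
Hsp90b1: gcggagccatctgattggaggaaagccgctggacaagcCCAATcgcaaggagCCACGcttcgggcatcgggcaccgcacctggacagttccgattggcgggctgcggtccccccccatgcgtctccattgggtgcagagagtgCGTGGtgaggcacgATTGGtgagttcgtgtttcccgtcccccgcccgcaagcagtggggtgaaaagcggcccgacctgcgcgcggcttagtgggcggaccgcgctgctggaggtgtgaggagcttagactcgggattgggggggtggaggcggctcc
Pdia4: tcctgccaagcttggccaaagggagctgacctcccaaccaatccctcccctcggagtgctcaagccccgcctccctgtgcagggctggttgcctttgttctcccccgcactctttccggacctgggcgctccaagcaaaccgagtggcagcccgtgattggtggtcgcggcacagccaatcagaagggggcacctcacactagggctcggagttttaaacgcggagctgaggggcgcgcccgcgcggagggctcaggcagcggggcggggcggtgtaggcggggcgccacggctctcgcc
Hspa5 held 1 ER element and Hsp90b1 held 2, 1 on each strand, and neither held a heat shock element.

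The heat-inducible pair Hspa1a (chr17:34972107-34972406) and Hspa1b (chr17:34959189-34959488), both on the minus strand, is printed to show how alike the copies are. Hsph1 (chr5:149636287-149636586, minus strand) and Hspb1 (chr5:135887669-135887968, plus strand) are printed because their RNA levels had the lowest correlation of any pair on the values as deposited. That correlation was r = -0.549 with a permutation adjusted p of 0.132. Both promoters held heat shock elements.
Hspa1a: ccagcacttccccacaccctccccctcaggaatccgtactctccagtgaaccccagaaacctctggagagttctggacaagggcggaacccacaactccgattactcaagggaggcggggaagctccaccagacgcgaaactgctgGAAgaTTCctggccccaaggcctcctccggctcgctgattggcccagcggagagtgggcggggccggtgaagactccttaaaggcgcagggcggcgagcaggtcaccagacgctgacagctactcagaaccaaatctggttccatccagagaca
Hspa1b: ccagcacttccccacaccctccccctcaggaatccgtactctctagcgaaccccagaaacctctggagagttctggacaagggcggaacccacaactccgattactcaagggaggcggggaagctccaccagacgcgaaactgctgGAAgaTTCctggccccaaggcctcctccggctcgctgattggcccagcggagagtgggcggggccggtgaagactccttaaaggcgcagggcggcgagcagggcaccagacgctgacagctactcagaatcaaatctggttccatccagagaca
Hsph1: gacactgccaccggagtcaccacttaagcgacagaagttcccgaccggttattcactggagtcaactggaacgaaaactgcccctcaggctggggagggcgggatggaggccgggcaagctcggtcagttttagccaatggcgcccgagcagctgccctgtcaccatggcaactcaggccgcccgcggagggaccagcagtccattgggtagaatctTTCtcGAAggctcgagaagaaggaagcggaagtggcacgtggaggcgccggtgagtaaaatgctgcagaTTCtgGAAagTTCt
Hspb1: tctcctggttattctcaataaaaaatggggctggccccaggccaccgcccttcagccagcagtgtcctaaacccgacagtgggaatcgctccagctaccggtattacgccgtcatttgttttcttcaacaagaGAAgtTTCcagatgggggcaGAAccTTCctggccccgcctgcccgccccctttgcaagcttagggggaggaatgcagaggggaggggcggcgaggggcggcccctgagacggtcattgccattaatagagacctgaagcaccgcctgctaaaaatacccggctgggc
The Hspa1a and Hspa1b promoters differed at 4 of 300 bases, C44T, T47C, T249G and C276T (the Hspa1a base first, positions counted from 1 at the 5′ end), and shared 1 heat shock element. Hsph1 held 3 elements of 2 units, 2 of which form its 3-unit element, and Hspb1 held 2. In both windows annotated for Dnajb1 none of the 3 sequences was found.

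In a gene-level check of the labels, Clec7a stood at 6.94 ± 2.61 TPM (SD, n = 7) in the KO-labelled libraries and 10.99 ± 5.99 TPM in WT, with overlapping ranges (4.02 to 10.46 and 4.10 to 18.86). The targeted gene therefore does not separate the groups, and every direction given here compares KO-labelled with WT-labelled libraries. TPM is a length-scaled share of all transcripts, so levels of different genes can be compared. Adiponectin (Adipoq) was at 683 TPM or more in every library. The libraries KO replicate 7 and WT replicates 4 and 7 held few B-cell transcripts, with Cd79a at 1.52 TPM or less against 177 TPM or more in the other 11, and lay apart on the first principal component of all genes (55.6% of the variance). In bulk tissue, fewer cells of a type and less RNA per cell cannot be told apart.

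None of the 10 genes was changed between the groups, and all 10 had overlapping ranges. The test was limma on log2(TPM + 1) over 14719 genes, with a gene called changed at a Benjamini-Hochberg adjusted p under 0.05. By this rule 0.0204% of all genes were called, 3 genes, all lower in KO. At an unadjusted p under 0.05 it was 0 of the 10 against 11.4% of all genes, and 0.319% of all genes had groups that did not overlap. The adjusted p of the 10 genes lay between 0.576 and 0.896. Their median log2 fold change was -0.14, with 7 below 0, beside a median of 0.04 over all genes tested, of which 45.4% were below 0.

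**Figure D1:**
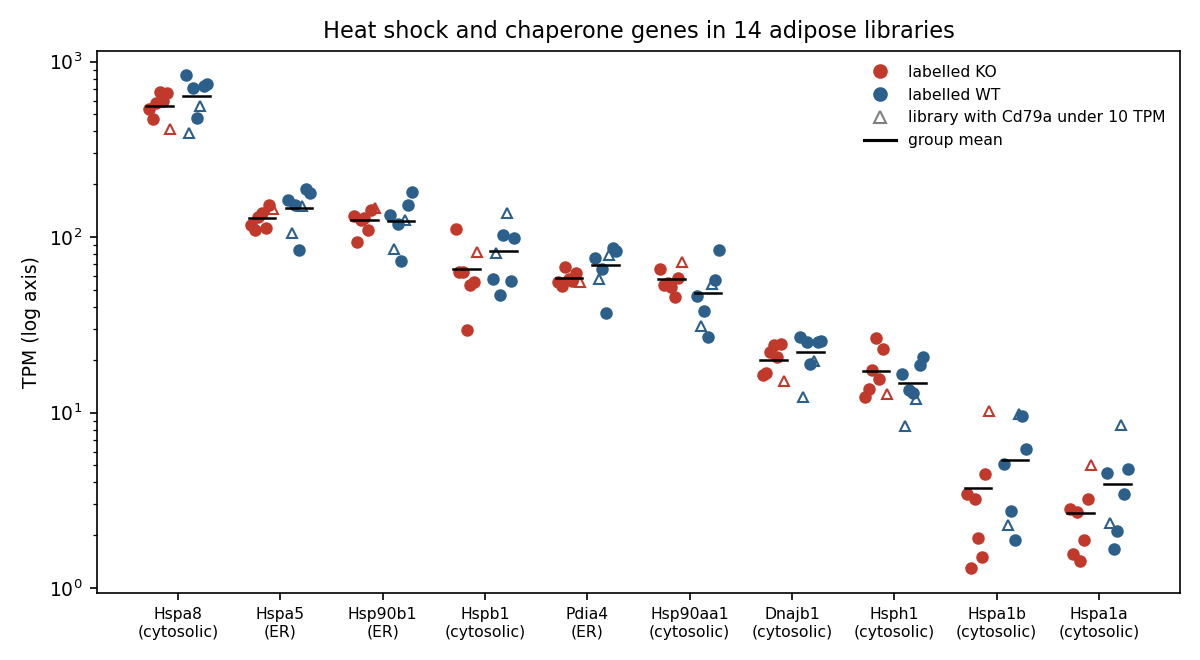
TPM (log axis) of the 10 genes in each of the 14 libraries, ordered by mean level; red marks KO-labelled and blue WT libraries, open triangles the 3 libraries with Cd79a under 10 TPM, and bars the group means. Hspa8 lies above every other gene, Hspa1a and Hspa1b lie lowest and spread most, and the groups overlap in every gene.

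The constitutive cytosolic HSP70, Hspa8, which folds new proteins and feeds chaperone-mediated autophagy, was by far the most abundant of the 10 genes, at 598 ± 133 TPM over all libraries (SD, n = 14; rank 227 of the 14719 genes). Among KO-labelled libraries the lowest value was 413 TPM, the median 578 and the highest 674 TPM. In WT the lowest was 389.9 TPM, the median 709 and the highest 835 TPM. The lowest value of each group came from KO replicate 7 and WT replicate 4, which are among those poor in B-cell transcripts, and the groups overlapped over most of their range. The log2 fold change was -0.15 ± 0.19 (SE; limma adjusted p = 0.737). Hspa8 alone made up 67.5% to 84.8% of the summed TPM of the 7 cytosolic genes.

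Its stress-inducible relatives Hspa1a and Hspa1b, which are nearly silent in unstressed cells and rise sharply with heat, were at the other end of the order. Hspa1a ranged from 1.43 to 5.01 TPM in KO (median 2.73) and from 1.67 to 8.52 TPM in WT (median 3.46). Hspa1b ranged from 1.30 to 10.21 TPM in KO (median 3.23) and from 1.87 to 9.78 TPM in WT (median 5.11). Both genes were highest in their group in the same B-cell-poor libraries, KO replicate 7 and WT replicate 7, while the third such library, WT replicate 4, was low (2.36 and 2.29 TPM). Hspa1b was nearly as high in WT replicate 8 (9.52 TPM), which was not poor in B-cell transcripts (Cd79a 349 TPM). KO replicate 7 also had the highest summed level of 10 immediate early genes, 691 TPM against 232.9 to 535 TPM in the other 13. The part of few B-cell transcripts or of immediate early genes in the Hspa1b level was not tested.

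The log2 fold changes were -0.36 ± 0.28 for Hspa1a and -0.45 ± 0.39 for Hspa1b (SE; limma adjusted p = 0.631 and 0.657). Without WT replicate 7 they were -0.18 and -0.30 (limma adjusted p = 0.885 and 0.878). Without WT replicate 8 they were -0.36 and -0.30 (limma adjusted p = 0.643 and 0.74). Without KO replicate 7 that of Hspa1b was -0.69 (limma adjusted p = 0.285), with library weights it was -0.90 (limma adjusted p = 0.0884), and in the 10 libraries with numbers that both groups share it was -0.06 (limma adjusted p = 0.957). The coding sequences of the pair (GENCODE M21) matched over 99.43% of aligned bases, with an identical run of 638 bases, so the authors' counting could divide reads between them and their separate values are uncertain. Their sum was 6.40 ± 4.29 TPM in KO against 9.27 ± 5.34 TPM in WT (SD over 7 libraries), and fitted as 1 gene it had a log2 fold change of -0.47 ± 0.37 (limma adjusted p = 0.632). Hspa8 exceeded this sum in every library, by a factor of 27.1 in KO replicate 7 to 199.98 in KO replicate 4.

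Dnajb1, the HSP40 that delivers clients to HSP70 and switches on its ATPase, ranged from 15.2 to 24.6 TPM in KO (median 20.7) and from 12.3 to 26.9 TPM in WT (median 25.3). Hsph1, the HSP110 that exchanges nucleotide on HSP70, ranged from 12.3 to 26.7 TPM in KO (median 15.6) and from 8.43 to 20.7 TPM in WT (median 13.5). Both partners of HSP70 were lowest in WT replicate 4, and Hsph1 was highest in KO replicate 4, the library with the most Cd79a (720 TPM). The log2 fold changes were -0.12 ± 0.18 for Dnajb1 and 0.22 ± 0.21 for Hsph1 (SE; limma adjusted p = 0.784 and 0.682).

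Hsp90aa1, the stress-inducible cytosolic HSP90, ranged from 45.3 to 72.6 TPM in KO (median 54.5) and from 26.95 to 84.0 TPM in WT (median 46.2). The WT libraries held both the lowest value (replicate 6) and the highest (replicate 9), so the KO range lay inside that of WT. Of the 10 genes it had the smallest unadjusted p, with a log2 fold change of 0.32 ± 0.21 (SE; 95% interval -0.13 to 0.78, limma adjusted p = 0.576). The constitutive isoform Hsp90ab1 was more abundant in every library, with a mean of 512 ± 91.0 TPM in KO against 527 ± 117 TPM in WT (SD) and a log2 fold change of -0.03 ± 0.17.

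Hspb1, the small heat shock protein HSP27 that holds unfolded proteins without using ATP and protects actin filaments, ranged from 29.5 to 111 TPM in KO (median 63.1) and from 46.6 to 138 TPM in WT (median 80.9). It was lowest in KO replicate 4 and highest in WT replicate 7. KO replicate 4 also had the lowest summed level of 7 adipocyte markers, 6821 TPM, where the other 13 libraries were at 10596 to 33704 TPM. All 7 of these markers had log2 fold changes below 0 (median -0.56, 0 called, 3 at an unadjusted p under 0.05, beside 11.4% of all genes), and their part in the Hspb1 values was not tested. The log2 fold change was -0.34 ± 0.28 (SE; limma adjusted p = 0.649). It was -0.17 without KO replicate 4, -0.20 without WT replicate 7 and -0.03 with library weights (limma adjusted p = 0.895, 0.881 and 0.951). Hspb1 varied more between libraries (coefficient of variation 39.6%) than any other gene of the 10 except Hspa1a and Hspa1b (58.3% and 70.2%).

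**Figure D2:**
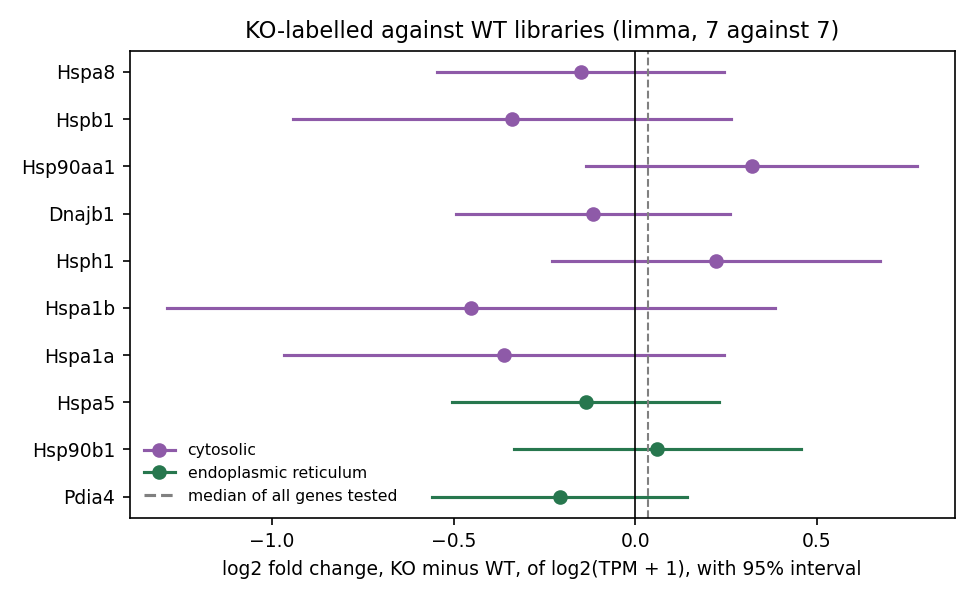
Log2 fold change (KO minus WT, fitted to log2(TPM + 1)) of the 10 genes with 95% intervals from limma; purple marks cytosolic and green ER genes, and the dashed line is the median of all genes tested, 0.04. All 10 intervals include 0, and the widest is that of Hspa1b, -1.29 to 0.38.

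Of the ER chaperones, Hspa5 (BiP), the ER's HSP70 and the sensor that holds the unfolded protein response in check, ranged from 109 to 153 TPM in KO (median 130.4) and from 84.6 to 187 TPM in WT (median 153). Hsp90b1 (GRP94), the ER's HSP90 with clients such as integrins and Toll-like receptors, ranged from 94.3 to 147 TPM in KO (median 128) and from 73.2 to 181 TPM in WT (median 125). Pdia4 (ERp72), a disulfide isomerase, ranged from 52.7 to 67.3 TPM in KO (median 56.6) and from 37.1 to 86.2 TPM in WT (median 76.2). In all 3 genes WT replicate 6 was the lowest of the 14 libraries, the highest was WT replicate 8 or 9, and the KO range lay inside the WT range. The spread in WT was wider, with an SD of 37.7, 36.9 and 17.4 TPM in WT against 16.8, 18.5 and 5.02 TPM in KO for Hspa5, Hsp90b1 and Pdia4.

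The log2 fold changes were -0.14 ± 0.17 for Hspa5, 0.06 ± 0.19 for Hsp90b1 and -0.21 ± 0.16 for Pdia4 (SE; limma adjusted p = 0.742, 0.896 and 0.633). With library weights Hspa5 moved to -0.39 ± 0.12 (limma adjusted p = 0.0717). Pdia4 passed under 1 alternative, in which limma weighted each library by how close its values lay to the fitted group means. No separate measure of library quality entered these weights. Pdia4 was then lower in KO by a log2 fold change of -0.40 ± 0.11 (limma adjusted p = 0.0449), in a fit that called 823 genes. Its adjusted p was above 0.05 in each other alternative run, and its log2 fold change was -0.35 without WT replicate 6 (limma adjusted p = 0.279).

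Ordered by mean level over the 14 libraries, the genes were Hspa8, Hspa5, Hsp90b1, Hspb1, Pdia4, Hsp90aa1, Dnajb1, Hsph1, Hspa1b and Hspa1a. Hspa8 was above Hspa5 and Hsp90aa1 above Dnajb1 with no overlap of the ranges, and Hsph1 exceeded Hspa1b within each of the 14 libraries. Neighbours that did not differ beyond their spread were Hspb1 and Pdia4 (Hspb1 higher in 7 of 14 libraries), Pdia4 and Hsp90aa1 (10 of 14), Hspa5 and Hsp90b1 (11 of 14) and Hspa1b and Hspa1a (10 of 14).

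The cytosolic and ER genes were then set against each other as the mean log2(TPM + 1) of each set in each library. This is given as a description with no test. The cytosolic mean was 4.76 ± 0.22 in KO and 4.88 ± 0.38 in WT, and the ER mean 6.62 ± 0.15 against 6.72 ± 0.42 (SD over 7 libraries). These means weight every gene alike, so which set is higher depends on the summary. Summed TPM had the opposite order, at 527.56 to 992 TPM for the 7 cytosolic genes and 194.8 to 442 TPM for the 3 ER genes. The cytosolic mean minus the ER mean was -1.87 ± 0.11 in KO and -1.84 ± 0.25 in WT. It was lowest in WT replicate 5 (-2.15) and highest in WT replicate 6 (-1.44), which had the lowest ER mean of all libraries, 5.96, at a cytosolic mean of 4.52. The difference between the groups, -0.03, was smaller than the SD within them and changed sign without Hspa1a and Hspa1b (0.08) or without Hspb1 (0.01).

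**Figure D3:**
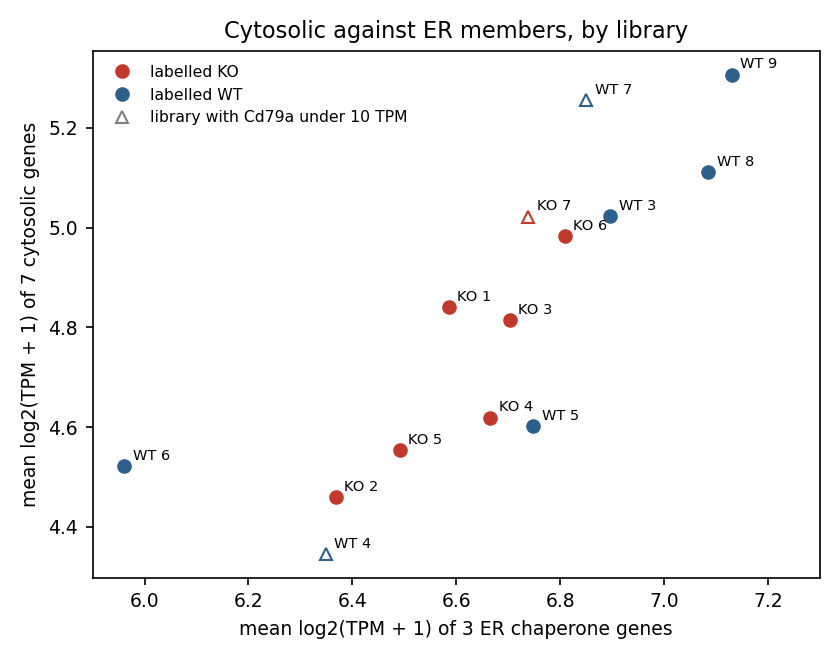
Mean log2(TPM + 1) of the 7 cytosolic genes (vertical axis) against that of the 3 ER genes (horizontal axis), with 1 point per library, red for KO-labelled and blue for WT, and open triangles for the 3 libraries with Cd79a under 10 TPM. WT replicate 6 stands to the left at an ER mean of 5.96, and WT replicates 8 and 9 lie at the right, at 7.09 and 7.13.

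To see which of the genes vary together, correlations of log2(TPM + 1) were computed for all 45 pairs over the 11 libraries with Cd79a of at least 10 TPM, since the other 3 form a cluster of their own. With permutation p-values adjusted by Benjamini-Hochberg over the 45 pairs, 14 pairs passed, all positive. They were 3 of 3 ER pairs, 2 of 21 cytosolic pairs and 9 of 21 pairs across the compartments. The median Pearson r was 0.892 for ER pairs, 0.445 for cytosolic pairs and 0.646 across. After median-ratio scaling, which makes the typical gene equal between libraries, 2 of the 45 pairs passed, Hspa8 with Dnajb1 and Hspa5 with Pdia4.

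Within the ER set the highest correlation was that of Hspa5 and Pdia4 (n = 11 libraries; r = 0.954, permutation p = 1e-05, the smallest possible, adjusted p = 0.00045; rho = 0.936, permutation p = 9e-05). It was 0.889 without the 2 libraries farthest from the median of Hspa5 and 0.882 after median-ratio scaling. For every pair these 2 libraries were chosen by the gene named first, so they can differ between pairs. The lowest ER pair, Hsp90b1 and Pdia4, had r = 0.887 (permutation p = 0.00035, adjusted p = 0.00315; rho = 0.782, permutation p = 0.0066), and r fell to 0.676 without the 2 farthest libraries and was 0.666 after median-ratio scaling, neither of which passed (permutation adjusted p = 0.119 and 0.126). The relation of Hsp90b1 and Pdia4 was thus weaker without those libraries and on the other scale.

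Within the cytosolic set Hspa8 and its partner Dnajb1 were closest (r = 0.922, permutation p = 8e-05, adjusted p = 0.0018; rho = 0.945, permutation p = 3e-05), with r = 0.894 without the 2 farthest libraries and 0.873 after median-ratio scaling. The other cytosolic pair to pass was Hspa1a and Hspa1b (r = 0.841, permutation p = 0.00157, adjusted p = 0.0101; rho = 0.873, permutation p = 0.001), whose near-identical coding sequences may share reads. With 2 other inducible genes the pair had lower values: r with Hsph1 was 0.21 for Hspa1a and 0.332 for Hspa1b, and with Hsp90aa1 0.503 and 0.495, none of which passed (permutation adjusted p = 0.175 to 0.598). With group means subtracted, r with Hsp90aa1 was 0.709 for Hspa1a and 0.753 for Hspa1b, and both passed (permutation adjusted p = 0.023 and 0.0162). Permutations of values with group means subtracted ran over all 11 libraries and not within groups, so such p-values may be too small. On the values as deposited the lowest pair was Hsph1 and Hspb1 (r = -0.549, permutation p = 0.0791, adjusted p = 0.132; rho = -0.50, permutation p = 0.121), with r = -0.157 without the 2 farthest libraries. With group means subtracted, Hspb1 and Dnajb1 were lower and passed (r = -0.688, permutation adjusted p = 0.0368). Hsph1 and Hspb1 were then at r = -0.535.

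Across the compartments the highest pair was Hspa8 and Hspa5, the constitutive HSP70 of each (r = 0.888, permutation p = 0.00024, adjusted p = 0.0027; rho = 0.918, permutation p = 0.00019). It was 0.822 without the 2 farthest libraries and 0.69 after median-ratio scaling, where it did not pass (permutation adjusted p = 0.126). Hsp90aa1 and Hsp90b1, the cytosolic and ER HSP90, had r = 0.829 (permutation p = 0.00292, adjusted p = 0.0131; rho = 0.755, permutation p = 0.00981), but 0.352 without the 2 farthest libraries. Their r was 0.887 with group means subtracted (permutation adjusted p = 0.00659). After median-ratio scaling it was 0.684 and did not pass. Leaving out the 2 farthest libraries narrows the range of the first gene in every pair. The cause of the fall for Hsp90aa1 and Hsp90b1 was not tested. Hspb1 stood outside this pattern, with r between -0.30 and -0.10 to the 3 ER genes; the lowest pair across, Hspb1 and Hspa5, had r = -0.30 (permutation p = 0.373, adjusted p = 0.431; rho = -0.30, permutation p = 0.371), and -0.328 without the 2 farthest libraries.

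**Figure D4:**
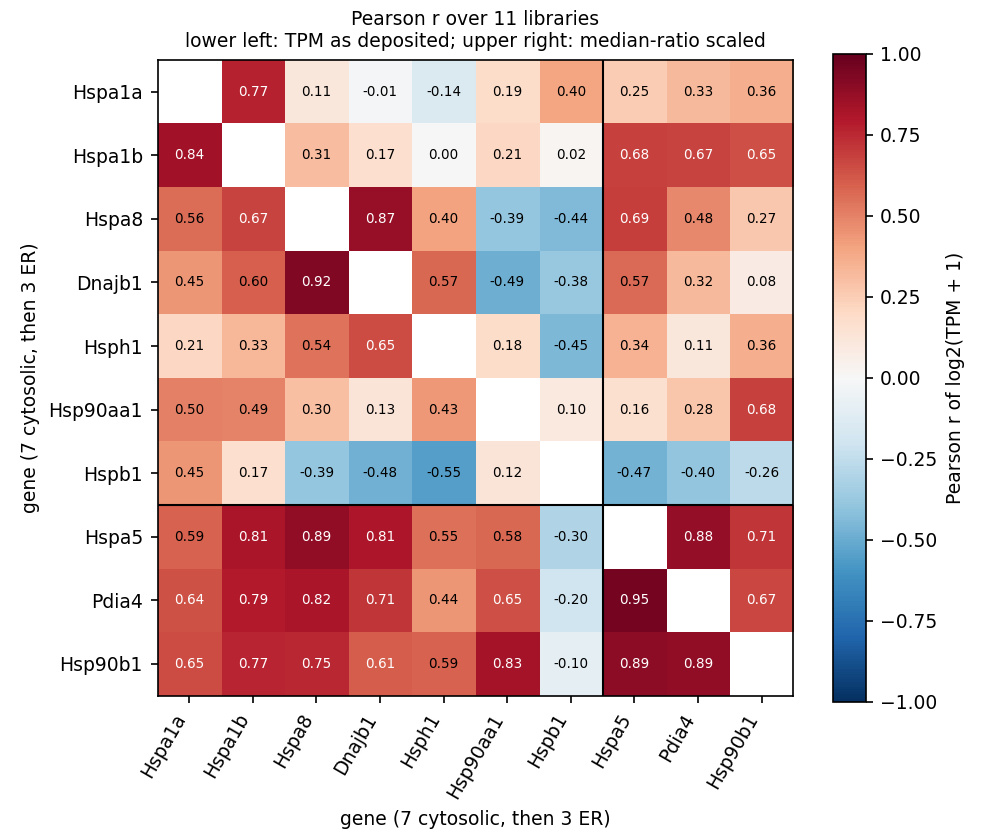
Pearson r between the 10 genes over 11 libraries, with TPM as deposited at the lower left and after median-ratio scaling at the upper right; lines part cytosolic from ER genes, and the colour scale runs from -1 (blue) to 1 (red). Most values are lower after scaling, Hspa8 with Dnajb1 (0.922 and 0.873) and Hspa5 with Pdia4 (0.954 and 0.882) stay high, and Hspb1 is below 0 with the ER genes on both scales.

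Genes whose levels followed single members most closely over the same 11 libraries were picked by Pearson r among 9850 other named genes of at least 5 TPM, as a description. Median-ratio scaling was not applied here. Among the closest to Hspa1b were Sdc1 (r = 0.958), a heparan sulfate proteoglycan that also marks plasma cells, and Pdia6 (0.925), a disulfide isomerase of the ER. With the summed level of B and plasma cell markers Hspa1b had r = 0.295 (permutation p = 0.385). Closest to Hsp90aa1 were Scfd1 (0.971), which acts in transport from the ER to the Golgi, Camsap2 (0.96), a microtubule minus-end protein, and Golgb1 (0.954), the Golgi protein giantin. Closest to Hspa5 were Etf1 (0.955), a translation release factor, Znrf2 (0.951), a ubiquitin ligase, and Ctsc (0.942), the lysosomal protease cathepsin C. Closest to Hsp90b1 were Eif1a (0.987), a translation initiation factor, Socs5 (0.984), a cytokine signalling suppressor, and Pafah1b1 (0.983), a dynein regulator.

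The 10 genes were also set against the summed levels of 8 marker lists (80 relations, the same 11 libraries). Here the 2 farthest libraries were those farthest from the median of the marker sum. No relation passed (smallest permutation adjusted p = 0.163); at an unadjusted p under 0.05 it was 13 of 80. The highest was that of Hspb1 with adipocyte markers (r = 0.796, permutation p = 0.00341; rho = 0.764, permutation p = 0.00897; 0.589 without the 2 farthest libraries). Hspa8 and Dnajb1 had r = 0.755 and 0.749 with macrophage markers (permutation p = 0.00718 and 0.00748; rho = 0.773 and 0.791, permutation p = 0.00729 and 0.00561), falling to 0.472 and 0.567 without the 2 farthest libraries. Of similar size was Hsp90aa1 with endothelial markers (r = 0.738, permutation p = 0.0083). With pancreatic acinar markers Hspa1b, Pdia4 and Hspa5 had r = 0.716, 0.711 and 0.675 (permutation p = 0.0102, 0.0231 and 0.0226). Without the 2 farthest libraries these values were 0.415, 0.364, 0.324 and 0.237, in the same order. Macrophage markers were lower in KO in 6 of 6 genes, none of them called, beside 45.4% of all genes tested. At an unadjusted p under 0.05 it was 2 of the 6, beside 11.4% of all genes tested. The summed level of macrophage markers was 184 to 388 TPM in KO and 167 to 775 TPM in WT. The B and plasma cell sum was 284 to 5086 TPM in KO and 134 to 5422 TPM in WT. Of these genes 8 of 8 were above 0 and none called, beside 8033 of all 14719 genes above 0. No marker of either list was at 0 in all libraries.

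Other genes of protein folding were taken from 9 lists that do not hold the 10 genes. Of 102 genes, 101 were tested; 0 were called in either direction, 36 had values above 0 and 65 below, with a median of -0.08. At an unadjusted p under 0.05 it was 8 of the 101, beside 11.4% of all genes tested. The heat shock factors themselves were not called: Hsf1, the master regulator, stood at 22.9 ± 5.38 TPM in KO and 20.5 ± 3.74 TPM in WT (SD; fitted log2 fold change 0.14 ± 0.17, limma adjusted p = 0.734), Hsf4 had a log2 fold change of -0.18 ± 0.15, and Hsbp1, which binds HSF1, one of -0.09 ± 0.14.

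Among 9 further genes of the HSP70, HSP110 and HSP90 families, 4 were above 0 and 5 below, with a median of -0.03. The 3 with the smallest p were Hspa14, a ribosome-associated HSP70, Hspa4, an HSP110, and Hspa4l, with log2 fold changes of 0.24 ± 0.16, 0.23 ± 0.20 and 0.21 ± 0.18 (limma adjusted p = 0.592, 0.654 and 0.654). One gene of this list, Hspa13, encodes a microsomal and not a cytosolic protein. Of 11 J proteins, the partners of HSP70, 5 were above 0 and 6 below. Dnajc7 stood at 128 ± 27.0 TPM in KO and 93.5 ± 19.5 TPM in WT (log2 fold change 0.45 ± 0.17, limma adjusted p = 0.353), while Dnajb4 and Dnajb12, the latter in the ER membrane like Dnajb14, had values of -0.53 ± 0.26 and -0.33 ± 0.19. Of 19 co-chaperones 5 were above 0 and 14 below (median -0.06), with Chordc1 at 0.41 ± 0.24, St13 at -0.41 ± 0.24 and Cacybp at 0.25 ± 0.15.

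In the small heat shock list, which leaves out Hspb1, 6 of 6 tested genes had log2 fold changes below 0, beside 45.4% of all genes tested. Their median was -0.51, and 0 were called. In size this was smaller than the SD within groups of the list's mean log2(TPM + 1), 0.54. Hspb7 was near the floor, at 0.17 to 4.57 TPM over the 14 libraries. The log2 fold changes were -0.63 ± 0.32 for Hspb8, a partner of the co-chaperone Bag3, -0.91 ± 0.51 for Hspb6, abundant in muscle, and -0.41 ± 0.29 for Hspb2 (limma adjusted p = 0.46, 0.506 and 0.594). Hspb6 ranged from 5.67 to 37.5 TPM in KO and from 10.01 to 80.99 TPM in WT. Its highest value was in WT replicate 4, which also had the highest summed level of 8 skeletal muscle genes, 22006 TPM, where the other libraries were at 17.8 to 7061 TPM. Muscle genes had values below 0 in 7 of 7 tested genes, none called, with a summed level of 17.8 to 7061 TPM in KO and 27.4 to 22006 TPM in WT, and none was at 0 in all libraries; their part in the small heat shock values was not tested. The summed level of the small heat shock list was 326 to 507 TPM in the 3 B-cell-poor libraries (1 KO, 2 WT). In the other 11 it was 91.7 to 287 TPM, with no overlap. The adipocyte marker sum did not overlap either (26447 to 33704 against 6821 to 21722 TPM). The muscle sum did overlap (57.5 to 22006 against 17.8 to 7061 TPM). The share of all genes with no overlap between these libraries was not computed. Without those 3 libraries 6 of 6 genes were still below 0, with a median of -0.31, and Hspb6 was at -0.45 and Hspb2 at -0.11. The SD within groups of the list's mean was then 0.46.

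Of 8 mitochondrial chaperones and proteases 3 were above 0 and 5 below (median -0.15); Grpel1, the nucleotide exchange factor of mitochondrial HSP70, had a value of -0.36 ± 0.14, Trap1, the mitochondrial HSP90, -0.31 ± 0.17 and the protease subunit Clpp -0.29 ± 0.17 (limma adjusted p = 0.381, 0.501 and 0.534). Of the 8 subunits of the cytosolic chaperonin CCT 3 were above 0 and 5 below (median -0.03), with Cct7 at -0.17 ± 0.11, Cct8 at 0.13 ± 0.14 and Cct4 at -0.10 ± 0.12.

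Of 21 further ER chaperones and folding enzymes 7 were above 0 and 14 below, with a median of -0.15 and 5 at an unadjusted p under 0.05 (11.4% of all genes tested). P4hb, the disulfide isomerase PDI, stood at 159 ± 23.3 TPM in KO and 214 ± 25.4 TPM for WT libraries (SD; fitted log2 fold change -0.44 ± 0.12, limma adjusted p = 0.22). Sil1, the nucleotide exchange factor of BiP, stood at 28.9 ± 8.33 against 45.8 ± 10.6 TPM (-0.66 ± 0.18, limma adjusted p = 0.222), and calreticulin (Calr), the lectin chaperone, at 266 ± 27.6 against 341 ± 50.5 TPM (-0.35 ± 0.12, limma adjusted p = 0.313). Each of the 3 had overlapping groups. Of 15 genes of the unfolded protein response and ER-associated degradation 8 were above 0 and 7 below (median 0.03); Derl2, part of the export channel for misfolded proteins, had a value of -0.50 ± 0.14, Xbp1, the response's transcription factor, -0.45 ± 0.22 and the ubiquitin ligase Syvn1 0.31 ± 0.17 (limma adjusted p = 0.224, 0.449 and 0.485).

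**Figure D5:**
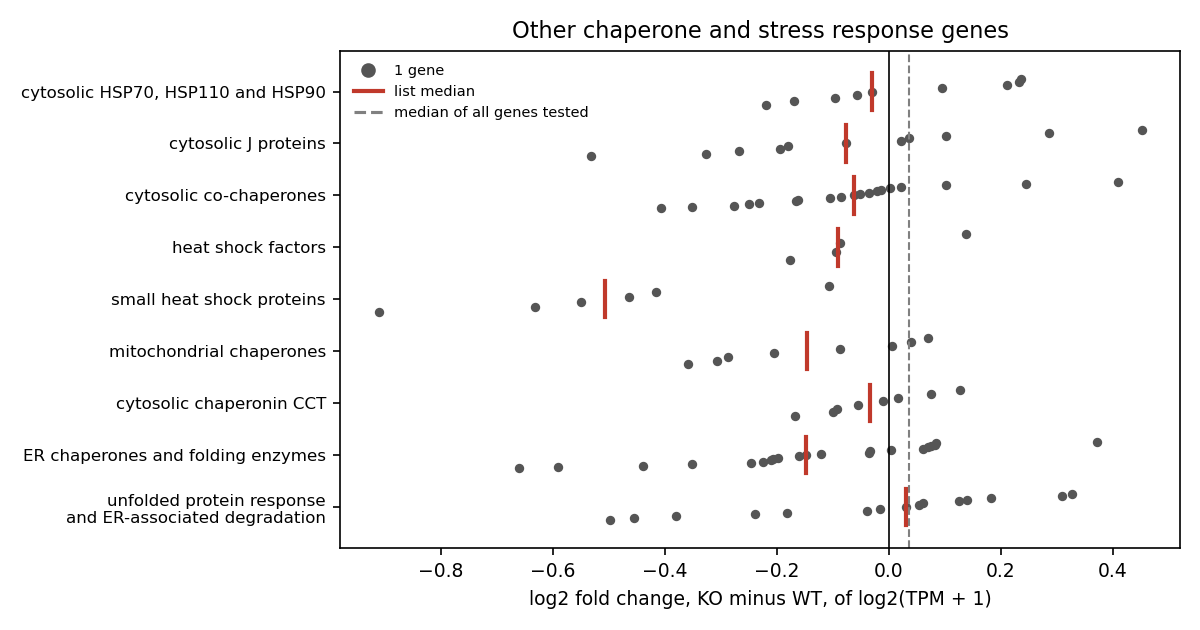
Log2 fold change (KO minus WT, fitted to log2(TPM + 1)) of 101 other chaperone and stress response genes in 9 lists, with 1 point per gene, a red bar at each list's median and a dashed line at the median of all genes tested, 0.04. Small heat shock proteins have the lowest median, -0.51, the medians of the other lists lie between -0.15 and 0.03, and none of the genes was called.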

How the data were processed

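The authors deposited 1 table of 56552 rows with a TPM value for each of 14 libraries; TPM keeps no read depth, so the spread between libraries is the only measure of error. Per the labels' protocols, the tissue was frozen, Trizol served for RNA extraction and an Illumina TruSeq kit for the libraries. Bowtie 0.12.2, mm8 and mm9 are named in the submitters' processing notes without their roles. No source used here gives the program behind the TPM values, its handling of shared reads and strand, or its annotation. A gene length column was also deposited, and the authors' group means were not used.

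Rows of the same symbol were summed (each of the 10 genes has 1 row). The filter kept genes reaching 1 TPM in 7 or more libraries, which were tested on log2(TPM + 1) with limma-trend (limma 3.58.1, R 4.3.3, robust prior, 2-sided), adjusted by Benjamini-Hochberg over all 14719. This scale understates the change of low genes. Correlations used 100000 permutations. The test was tried on simulated data first. The genes and lists were chosen with earlier results of these data known. Genes named were the 10 members, up to 3 genes of smallest p per list, the 3 nearest genes to each of 4 members (1 of these is not reported here), and the highest and lowest pairs; Hsp90ab1 and Adipoq, as well as the pairs Hspa1a with Hspa1b and Hsp90aa1 with Hsp90b1, were added after their values were seen, and the relations to marker lists are not in the design written first. Ero1l and Ero1lb were matched by older symbols. Alternatives were other pseudocounts, filters, scalings, weights, covariates, a replicate block and libraries left out.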

Additional observations from a re-analysis of the deposited data

Results flagged for a closer look

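Of 26 sets of 7 values checked for a library far from the rest (10 genes and 3 mean levels in each group), 1 stood out. About 1 in 20 is flagged by chance alone if values are normally distributed, which low TPM values need not be. Hspa1b in KO replicate 7 was at 10.21 TPM, and its gap to the next KO library (4.49 TPM) was 0.642 of the range of that group, above the critical value of 0.568. This gap was measured in TPM and not on log2(TPM + 1), where high values lie closer together. The flag therefore holds for TPM only. Hspa1a in the same library was also the highest of its group, at 5.01 TPM, but its gap did not pass. KO replicate 7 is 1 of the 3 libraries with few B-cell transcripts, and the cause of its Hspa1b level was not tested.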

How the results depend on the processing

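The count of changed members, 0, was the same in 28 of 29 alternatives and was 1 (Pdia4, lower) with library weights. The count over all genes, 3, was 1 without the filter on low values and with rows as deposited, 9 with median-ratio scaling, 19 with quantile normalization (13 higher, 6 lower), 6 without mitochondrial genes, 823 with library weights, 23 with the B and plasma cell score as a covariate, and 0 without the 3 libraries of few B-cell transcripts, with the muscle score as a covariate, and in the 10 libraries numbered 3 to 7 with and without the replicate block. Leaving out single libraries gave 0 to 6, with 6 without KO replicate 7. The log2 fold change of Hsp90b1 turned to -0.16 with library weights and to -0.0588 without the 3 libraries, and lay between -0.0556 (without WT replicate 6) and 0.16 with 1 library left out. With the replicate block, and in the same 10 libraries without it, Hspa8 turned to 0.00964, Dnajb1 to 0.0777 and Hspa5 to 0.0840, where the median of all genes was 0.13; library weights moved Hspa5 to -0.39 and Hspa1b to -0.90, neither called. Same-numbered libraries had correlations of deviations between -0.672 and 0.803, with 2 of 5 numbers best matched by their own partner; since not every number was above 0.1, the numbers were not taken as pairs. The block changed no call of a member. Of the 45 pairs, 24 passed with group means subtracted, 10 without the 2 farthest libraries of each pair and 2 after median-ratio scaling. Those passing with group means subtracted included Hspb1 with Dnajb1, at r = -0.688. The cause of these shifts was not tested. The median of the small heat shock list without the 3 libraries, -0.31, was added after seeing the data. The read depth is unknown, which limits what can be said of low genes such as Hspa1a and Hspa1b.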

Other observations

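The ratio of Hsp90b1 to Hspa5, chosen after its values were seen and not tested, was 0.973 ± 0.0827 in the KO-labelled and 0.849 ± 0.0797 in the WT libraries (SD, n = 7 each). It ranged from 0.863 in KO replicate 2 to 1.13 in KO replicate 1, and from 0.779 in WT replicate 5 to 1.02 in WT replicate 9, so the groups overlapped. This ratio does not depend on how the libraries are scaled. The ratio of Pdia4 to Hspa5 was 0.455 ± 0.0511 in KO and 0.478 ± 0.0440 in WT.

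Immediate early genes, which respond within minutes to handling and signalling, had log2 fold changes above 0 in 9 of 10 genes (median 0.45, 0 called, 4 at an unadjusted p under 0.05, beside 11.4% of all genes tested). Fos stood between 13.25 and 76.8 TPM in KO and between 7.56 and 41.0 TPM in WT, and Egr1 between 28.05 and 101.9 TPM in KO and between 13.25 and 43.3 TPM in WT. Their summed level and that of Hspa1b had r = 0.0691 over the 11 libraries with Cd79a of at least 10 TPM (permutation p = 0.839, adjusted over 80 relations 0.972; rho = 0.136, permutation p = 0.691; r = 0.414 without the 2 farthest libraries).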
